A study of Homo sapiens with 4 samples.

Results

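The regions described are PABPC4 peaks that end at or near an annotated transcript end. PABPC4 is a cytoplasmic poly(A)-binding protein, and its RNA was mapped by PAPERCLIP, in which the protein is crosslinked to RNA with ultraviolet light, immunoprecipitated, and the bound fragments are copied from their poly(A) tails. A peak counted as an end peak when its centre lay in a GENCODE 44 3′ UTR on the same strand, its 3′ end lay within 25 nt of an annotated transcript 3′ end of that gene, and the 50 nt downstream held no A-rich stretch, meaning a run of 6 A or 10 nt with 7 A. Of 63507 distinct positions in the PABPC4 list, 18891 were in 3′ UTRs, and 7198 of these were end peaks, or 38.1% (95% Wilson interval 37.4 to 38.8%). They lay in 6413 of 19249 genes with a 3′ UTR.

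The cells were MDA-MB-231, an established basal breast cancer line, for which the labels give no genetic change or drug, crosslinked at 400 mJ per square centimetre and 254 nm. The series held 2 samples with an antibody to PABPC4 and 2 with an antibody to HNRNPC, a nuclear RNA-binding protein, and both samples of a protein were merged into 1 peak list. No spread between replicates could be computed, and the intervals and tests cover counting error only and treat peaks as independent, although peaks of 1 gene are not. End peaks were found in all 4 genes set as markers of this line: VIM (10197 tags), CD44 (331 and 121), AXL (1041 and 83) and CAV1 (2714 and 1793). None lay in the luminal markers ESR1, PGR, GATA3 and CDH1, in PTPRC of blood cells or in PECAM1 of endothelium. GATA3 and CDH1 had 3′ UTR peaks of 108 and 56 tags before A-rich stretches, that of CDH1 3 nt from an annotated end. COL1A1, a fibroblast marker, had 1 end peak of 151 tags. KRT19 and KRT8, keratin genes outside these marker lists, had end peaks of 892 and 170 tags at the last end. Only 33.3% of all genes with a 3′ UTR had an end peak, so absence from so few genes says little.

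Most mRNAs are cut and given a poly(A) tail a short way downstream of a hexamer, the poly(A) signal, which is AAUAAA or, less often, AUUAAA or another variant. The CPSF complex reads the hexamer, CFI binds UGUA upstream, and CstF binds U- or GU-rich RNA downstream of the cut. Many genes carry several such signals, and alternative polyadenylation among them yields mRNAs with shorter or longer 3′ UTRs.

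The last 30 nt before the annotated end are shown in hg38 coordinates for tall end peaks with each kind of hexamer. They are read 5′ to 3′, with the assigned hexamer in capitals. All of them lie in the 3′ UTR of the gene named. VIM encodes an intermediate filament protein, GAPDH a glycolytic enzyme and HMGA1 a chromatin protein, and each has AAUAAA. RPL35A (2937 tags), RPL27A (2605) and RPL18 (2574), ribosomal proteins of the large subunit, have AUUAAA. TUBA1B, an α-tubulin, and IGFBP4, which binds insulin-like growth factors, have other single-base variants. The AAAAAA assigned to IGFBP4 is itself a run of A, and whether it acts as a signal was not tested. CD63, a tetraspanin, and PCBP2, a poly(C)-binding protein, have none of the 19 hexamers searched.
VIM (chr10:17237564-17237593, plus strand): uucugcuucAAUAAAucuuuggaaaaacuc
GAPDH (chr12:6538345-6538374, plus strand): aucAAUAAAguacccugugcucaaccaguu
HMGA1 (chr6:34246202-34246231, plus strand): acuugAAUAAAaaaaauauccuuuucugga
RPL35A (chr3:197955822-197955851, plus strand): uaaguggAUUAAAaaacuuacuaccuuaaa
RPL27A (chr11:8685819-8685848, plus strand): ggaguuucAUUAAAugcuaacuacuuuuuc
RPL18 (chr19:48615328-48615357, minus strand): cucuuAUUAAAaagauuuuugcugacagug
TUBA1B (chr12:49127782-49127811, minus strand): uaucucaaAGUAAAgucauuaacaucaaaa
IGFBP4 (chr17:40457696-40457725, plus strand): acaaaacagaacaaaaccAAAAAAugucca
CD63 (chr12:55725443-55725472, minus strand): aaagagauggucugaguuugucuuagagug
PCBP2 (chr12:53479821-53479850, plus strand): gaugccacagugauucauguggguuuuauu

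The peak ends sat close to the annotated ends. The median offset was 1 nt upstream, 16.7% of peaks ended on the annotated base itself, 77.1% (76.1 to 78.0%) within 5 nt and 88.2% within 10 nt. Ends upstream of the annotated base made up 61.6% and ends downstream 21.7%. The limit of 25 nt did not fall at a sharp edge. The 167 peaks 21 to 25 nt away had a median height of 34 tags, and the 134 peaks just outside, 26 to 30 nt away, had 48.5 tags. AAUAAA or AUUAAA lay in the 40 nt before the annotated end of 85.4% of peaks within 5 nt of it, 48.5% of those 21 to 25 nt away and 44.03% of those just outside.

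**Figure D1:**
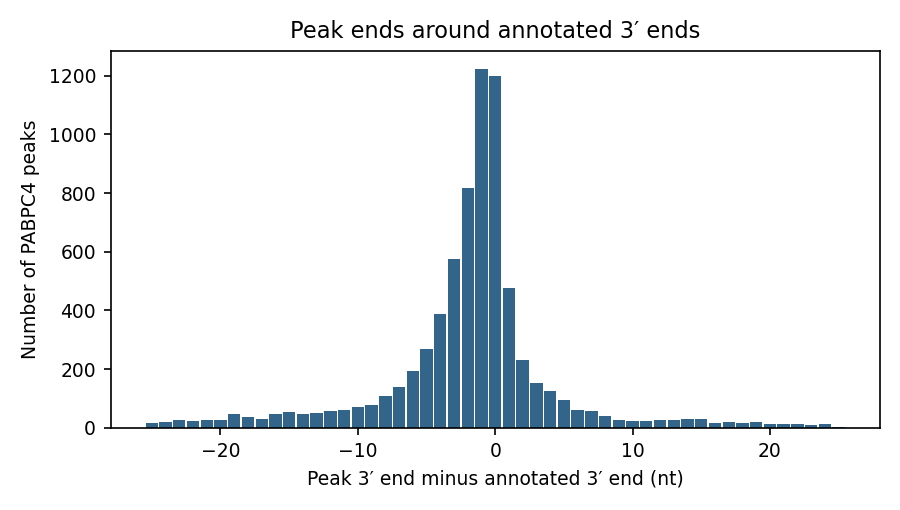
Number of PABPC4 end peaks (vertical axis) by the distance in nt from the peak's 3′ end to the nearest annotated 3′ end of the gene (horizontal axis, negative is upstream). The counts gather at the annotated base and the few bases before it, with 40.3% of peaks within 1 nt.

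AAUAAA was the signal of 4726 end peaks, or 65.7% (64.6 to 66.7%), counted in the 40 nt before the annotated end. A window of the same length that starts 140 nt before the end held it in 2.35% (2.02 to 2.72%). AUUAAA, searched where AAUAAA was absent, was the signal of 1112, or 15.4% (14.6 to 16.3%), against 2.01% in the window farther upstream. Together these main signals preceded 81.1% of end peaks (80.2 to 82.0%), against 4.36%. Any of the 17 other single-base variants of AAUAAA was the best match of 888 peaks, or 12.3%, and 472 peaks, or 6.56% (6.01 to 7.15%), had none.

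Among the 1360 end peaks without a main signal, 65.3% (62.7 to 67.8%) had another variant, against 16.8% (14.9 to 18.9%) in the window farther upstream. The variants differed widely in how far they exceeded that window. AGUAAA, the hexamer of TUBA1B, preceded 179 of the 1360 and lay in 9 of the windows farther upstream, a ratio of 19.9. UAUAAA preceded 163 against 21 farther upstream, a ratio of 7.76. The ratio for CAUAAA was 7.4, from 74 peaks against 10. At the other extreme, the 21 peaks with AAUUAA did not exceed the 24 farther upstream.

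The main signals kept a narrow spacing. AAUAAA started a median of 22 nt before the annotated end (quartiles 19 and 24 nt), with 90.8% of starts from 15 to 30 nt, and AUUAAA a median of 21 nt (quartiles 19 and 24 nt). The most frequent start of AAUAAA was 20 nt before the end, with 11.2% of its peaks. The other variants had a median of 20 nt and a second rise close to the end. Where a class matched more than once in the window, the match nearest the end was taken, which favours starts close to it. How much of the second rise comes from this was not tested. AAAAAA, assigned to 74 peaks, started nearer the end, at a median of 13 nt. An A-rich stretch lay in the last 15 nt of 10.8% of all end peaks (10.1 to 11.5%). The share was 60.8% (45 of 74) for peaks assigned AAAAAA and 3.55% (5 of 141) for those assigned AGUAAA. The rule looked for such stretches downstream only, and whether priming inside the transcript made any of these peaks was not tested. CAV1, which encodes a caveolar coat protein, shows the case in its upstream end peak of 2714 tags, where the assigned AAGAAA lies in a run of A.
CAV1 upstream end (chr7:116559607-116559636, plus strand): ugaggaggaaaaaaaaaaaaAAGAAAagaa

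**Figure D2:**
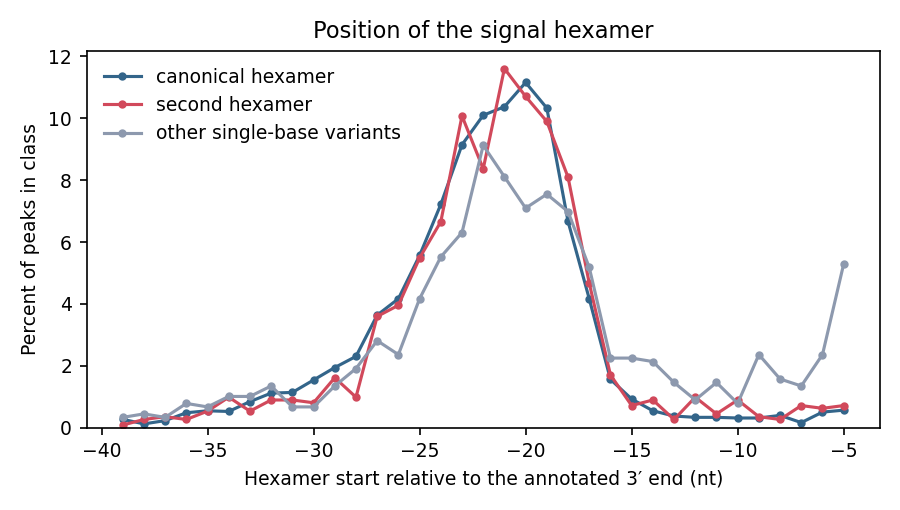
Percent of end peaks in each signal class (vertical axis) whose hexamer starts at a given distance in nt before the annotated 3′ end at 0 (horizontal axis). The canonical hexamer is the one of VIM, the second hexamer the one of RPL35A, and the third line pools the 17 other single-base variants. Both main hexamers peak at 20 to 21 nt before the end, and the pooled variants rise again within 10 nt of it.

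Elements read by CFI and CstF were also more frequent around the end than farther upstream. UGUA lay in the 100 nt before the end of 55.6% of end peaks (54.5 to 56.8%), against 42.4% in the 100 nt before that. UGUG or GUGU lay in the 40 nt after the end of 46.5%, and UUUU in that of 45.4%, against 27.98% and 30.2% in the 40-nt window upstream. These motifs were searched on the transcribed strand, and UGUG and GUGU can overlap. The last annotated base was A in 58.2% of end peaks, against 26.2% in the upstream window. Adenine reached 56.7% of peaks 19 nt before the end and uracil reached 46.7% 17 nt after it. The downstream elements were about as frequent after AAUAAA (73.3% with any of the 3) as after AUUAAA (74.4%) and the other variants (75.9%). The 472 peaks with no hexamer had fewer of each, with UGUA before 44.1% (39.7 to 48.6%), UGUG, GUGU or UUUU after 64.6% (60.2 to 68.8%) and A as the last base in 41.1%. Their 40 nt before the end held 25.5% adenine, against 37.0% over all end peaks, a value partly set by choosing windows without these hexamers. The bases after the end are shaped by the rule, which left out A-rich stretches there.

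**Figure D3:**
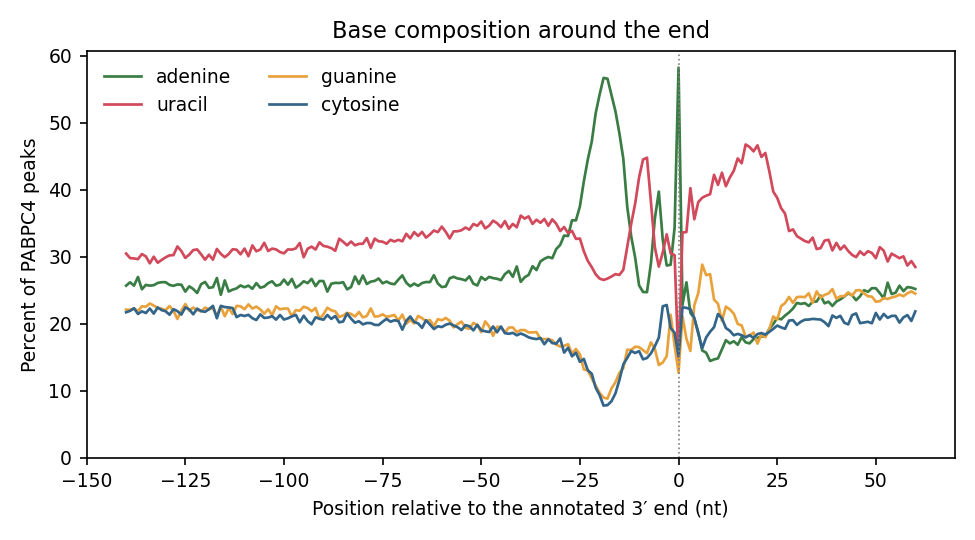
Percent of end peaks with each base (vertical axis) at each position in nt from the annotated 3′ end at 0 (horizontal axis). Adenine rises to 56.7% at 19 nt before the end, uracil to 44.8% at 8 nt before and 46.7% at 17 nt after it.

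Compared with the other 3′ UTR peaks of the list, with the 40-nt window set at the peak end in all of them, the end peaks had a main signal more often. A main signal preceded 5741 of 7198 end peaks, or 79.8%, and 1777 of 5657 peaks that lay away from annotated ends with no A-rich stretch, or 31.4% (30.2 to 32.6%). The difference was 48.3 percentage points (Newcombe interval 46.8 to 49.9). Of 6036 3′ UTR peaks before an A-rich stretch, 27.6% (26.5 to 28.7%) had one, a difference of 52.2 points (50.7 to 53.6). The 1882 of these that also lay within 25 nt of an annotated end were closer to the end peaks, with 53.8% (51.5 to 56.0%) and a median height of 50 tags. Both p-values (Fisher's exact test, two-sided) were too small to be represented. Annotated ends of coding transcripts that had an end peak carried a main signal in 80.9% of cases (5506 of 6803), and ends of the same genes with no PABPC4 peak within 25 nt in 20.9% (2922 of 13954).

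Height is the number of pooled tags at a peak's summit, and it was compared only within the list. End peaks had a median height of 59 tags (quartiles 26 and 135 tags, range 3 to 10197), against 36 tags for the peaks away from ends and 44 for those before an A-rich stretch. They made up 11.3% of positions and 25.3% of the list's summed height. Their own height was concentrated, with 23.5% of it in the tallest 100. Median widths were 48 nt for end peaks and 47 nt for peaks away from ends, while 42.5% and 18.5% of them were over 50 nt wide.

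Taller end peaks more often had AAUAAA. Its share was 61.4% (59.2 to 63.7%) in the 1810 peaks of up to 26 tags and 72.3% (70.2 to 74.4%) in the 1800 peaks of 135 tags or more. The share with no hexamer was 8.07% (6.90 to 9.41%) and 3.06% (2.36 to 3.96%) in the same groups. Median heights were, in order, AAUAAA (65 tags), AUUAAA (55.5), other variants (49) and none (43.5), with broad overlap: the quartiles were 28 and 147 tags for AAUAAA and 22 and 82 tags for none. Of the 10 tallest, 9 had AAUAAA and TUBA1B had AGUAAA at 6245 tags. Those not yet named were TMSB10, which binds actin monomers (6248 tags), the small-subunit ribosomal proteins RPS21 (5493) and RPS29 (4546), the myosin light chain MYL6 (4824), the ferritin light chain FTL (4357) and ARHGDIA (4251). The tallest with no hexamer were CD63 (2528 tags), PCBP2 (1604) and RPL13 (1298), all at an upstream end.

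**Figure D4:**
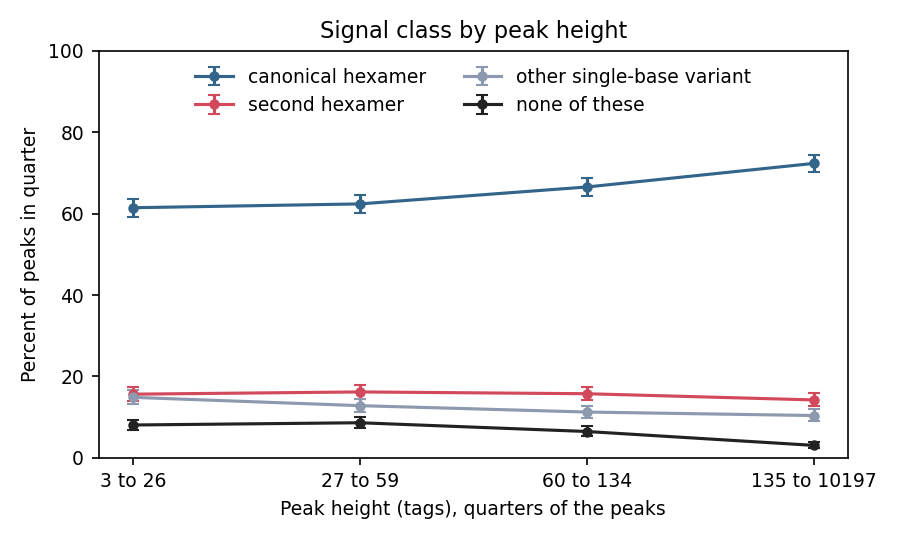
Percent of end peaks in each signal class (vertical axis) in 4 groups of about equal size by peak height in tags (horizontal axis), with 95% Wilson intervals as bars. The canonical hexamer goes from 61.4% in the lowest group to 72.3% in the highest, and peaks with none of the 19 hexamers go from 8.07% to 3.06%.

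Ends of a gene within 50 nt of each other were counted as 1 end, and the last end is the one farthest downstream over all annotated transcripts. Genes with several annotated ends held 6811 end peaks, of which 3892 lay at the last end, or 57.1% (56.0 to 58.3%), and 2919 upstream of it. For 1856 of the upstream peaks 1 annotated exon reached on to the last end, so that both ends could belong to 1 terminal exon, and the median distance to the last end was 1171.5 nt. The other 1063 ended in a different exon.

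Upstream ends had a main signal less often than last ends. A main signal preceded 86.5% of peaks at the last end (85.4 to 87.5%) and 73.0% of those upstream (71.3 to 74.6%), a difference of 13.5 points (11.6 to 15.5; two-sided Fisher's exact test, p = 5.08e-44, Benjamini-Hochberg adjusted p = 6.78e-44 over 4 tests). The share was lowest, 69.1% (67.0 to 71.2%), for upstream ends in the same exon as the last, where AAUAAA preceded 51.6% and no hexamer was found in 12.3%. It was 79.7% (77.2 to 82.0%) for upstream ends in other exons and 88.4% (84.8 to 91.2%) for the 387 peaks of genes with 1 annotated end. UGUG or GUGU followed 49.5% of last ends and 42.3% of upstream ends. Median heights were 64 tags at last ends and 53 upstream, with quartiles of 27.75 and 142 against 25 and 119 tags. Spacing hardly moved: the main signal started a median of 21 nt before last ends and 22 nt before upstream ends.

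Most genes had an end peak at 1 end only. Of the 6026 genes with several annotated ends, 3426 had end peaks at the last end alone (56.9%), 2165 upstream alone (35.9%) and 435 at both (7.22%). In 78 of the 2165, a PABPC4 peak at the last end had been left out for an A-rich stretch.

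In the 435 genes with both, the taller peak was about as often at one position as at the other. The last end had the taller peak in 214 genes, or 49.2% (44.5 to 53.9%), and heights were equal in 5. The median share of the height at the last end was 49.8% (quartiles 25.6 and 71.4%). The share of genes with a taller last end went with the signals in the 378 genes where 1 exon held both ends. It was 67.4% of 129 genes (59.0 to 74.9%) with a main signal at the last end and not at the tallest upstream end, 43.4% of 196 genes (36.6 to 50.4%) with a main signal at both, 25.9% of 27 genes (13.2 to 44.7%) with one only at the upstream end and 42.3% of 26 genes (25.5 to 61.1%) with one at neither. The first interval overlaps neither of the next in that order, and the last groups are small. By distance the share went from 47.0% to 53.7% over 4 ranges, with overlapping intervals.

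**Figure D5:**
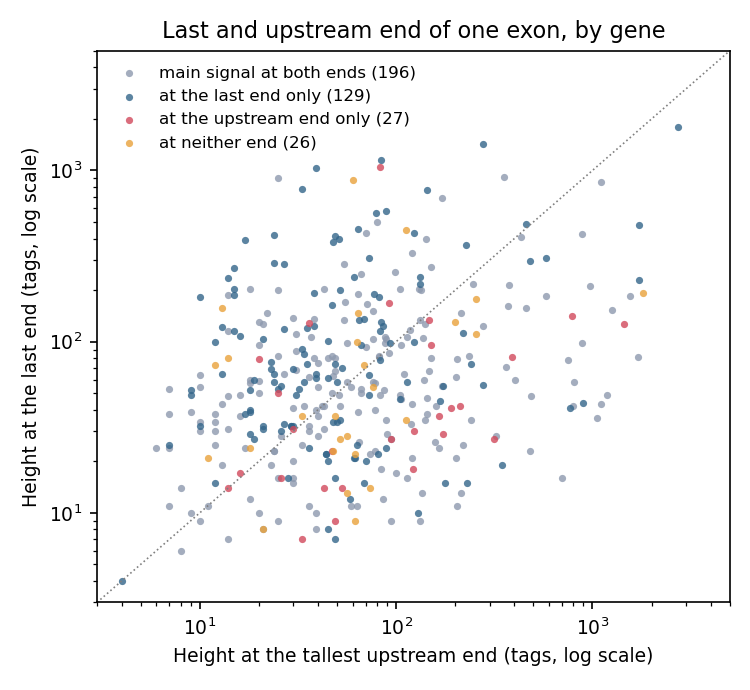
Height at the last end (vertical axis) against height at the tallest upstream end (horizontal axis), in tags on log scales, for the 378 genes where 1 exon holds both. Each point is a gene, the dotted line marks equal heights and colours give which end has a main signal. Points with a main signal at the last end only lie above the line in 67.4% of genes, and those with one at the upstream end only in 25.9%.

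Some of these genes lay far from balance. Among the 138 genes with both ends in 1 exon and at least 200 tags over them, the highest shares at the last end were in TARS1, a threonyl-tRNA synthetase (898 tags at the last end, 25 upstream), EIF4A1, a helicase of translation initiation (1030 and 39), FKBP1A, a prolyl isomerase (777 and 33), STRAP (390 and 17) and CDC42BPA, a kinase that binds CDC42 (270 and 15). All 5 had AAUAAA at the last end, and the upstream end had AAUAAA in TARS1, AAGAAA in CDC42BPA and no hexamer in the other 3. The lowest shares among the 138 were in SPINT2, a protease inhibitor (16 tags at the last end, 703 upstream), HNRNPA1, a splicing factor (42 and 800), ECPAS (36 and 1053), RPL37 (43 and 1103) and DDX5, an RNA helicase (49 and 1191). All 5 of these had AAUAAA at both ends. In SPINT2 the ends were 147 nt apart and in RPL37 7186 nt. HNRNPA1 had a further upstream end peak. The sequences of EIF4A1 and SPINT2 show an upstream end with no hexamer and a pair of ends with the same one. An end in the 3′ UTR of 1 transcript can lie in coding sequence of another. Whether the EIF4A1 upstream end does so was not checked. It may therefore lie in coding sequence of the main mRNA and not form a pair of 3′ UTR ends with the last end.
EIF4A1 last end (chr17:7578977-7579006, plus strand): aauucugAAUAAAaugacuuggaaacugcc
EIF4A1 upstream end (chr17:7578438-7578467, plus strand): caacaccuccauugaggaaaugccccucaa
SPINT2 last end (chr19:38292586-38292615, plus strand): acaagaugaAAUAAAuguccuauuacugag
SPINT2 upstream end (chr19:38292439-38292468, plus strand): ccuuuagAAUAAAuuucagcaugugcuuuc

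Few end peaks had an HNRNPC peak nearby. Of 9107 HNRNPC positions, 92, or 1.01% (0.82 to 1.24%), lay within 500 nt of an end with an end peak. All listed positions were counted, whether or not they lay in a 3′ UTR. The share among HNRNPC positions in 3′ UTRs was not computed. The paper describes pervasive binding of HNRNPC to introns. It also reports that PABPC4 bound most of the targets that HNRNPC bound in the 3′ UTR. That overlap of targets was not tested here. An HNRNPC peak lay within 500 nt on the same strand of 94 end peaks, or 1.31% (1.07 to 1.60%). This share of peaks was not computed for other 3′ UTR peaks, so it has no background here. The share was 1.16% (45 of 3892) at last ends and 1.51% (44 of 2919) at upstream ends, a difference of -0.351 points (-0.938 to 0.193; two-sided Fisher's exact test, p = 0.236, adjusted p = 0.236), so no difference was detectable in a list of 9107 HNRNPC positions. When PABPC4 peaks up to 50 nt from an annotated end were counted, a setting picked after the values were seen, it was -0.584 points (Fisher's exact test, adjusted p = 0.0361).

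PDLIM5, KAT14, TXNRD1, PGK1 and the genes of both precipitated proteins, which the study also named, each had an end peak. Among all genes with a 3′ UTR, 33.3% had one. These genes held 10 end peaks, 5 with AAUAAA and 5 with AUUAAA, and 4 lay at the last end (57.1% over all). PGK1, a glycolytic kinase, had 752 and 164 tags at upstream ends and 78 at the last end, and the upstream end of 752 tags was the one with AAUAAA. HNRNPC had 278 and 219 tags upstream and 123 at the last end, again with AAUAAA at the tallest. PABPC4 had 1155 tags at an end 105 nt before its last. PDLIM5, a PDZ-LIM protein, had 187 tags and TXNRD1, a thioredoxin reductase, 274 tags, both at the last end, and KAT14, an acetyltransferase gene, had 37 tags upstream. The paper shows a proximal and a distal poly(A) site for PDLIM5, and no upstream end of it had an end peak under this rule. Whether its proximal site is used in these cells was not tested here.
PGK1 tallest upstream end (chrX:78126238-78126267, plus strand): uuaaguaaacAAUAAAaguguccauugaaa
PGK1 next upstream end (chrX:78126920-78126949, plus strand): ucucaauauAUUAAAacauauugaauaauc
PGK1 last end (chrX:78129266-78129295, plus strand): uauagauauAUUAAAauguaaaugguggca

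Of 12 genes known for tandem 3′ ends, 9 had end peaks (33.3% of all genes with a 3′ UTR had one), 15 in all, with 6 at the last end (57.1% over all). DICER1, FHL1 and ELAVL1 had none but had other 3′ UTR peaks. The peak of FHL1 (16 tags, 1 nt from an annotated end) and peaks of DICER1 (27 and 15 tags, 20 and 24 nt away) were left out for an A-rich stretch, and the tallest of ELAVL1 (164 and 157 tags) lay away from ends. CD47, a surface protein that binds SIRPα, had 255 and 65 tags, both upstream, and TIMP2, a metalloproteinase inhibitor, had 431 tags at the last end and 70 upstream. The cyclin gene CCND1 had 1730 tags and the GTPase gene RHOA 940, both at the last end. The GTPase gene CDC42 had 678 tags upstream. VMA21, a V-ATPase assembly factor, had 245 tags at the last end.

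Replication-dependent histone mRNAs end in a stem-loop in place of a poly(A) tail. None of 68 such genes had an end peak, against 33.3% of all genes with a 3′ UTR. With 3 counts allowed where none was seen, an approximate limit and not a Wilson one, the share could be up to 4.41%. A single one of the 68 genes, H3C10, had a 3′ UTR peak of any kind, of 24 tags before an A-rich stretch. Of 87 genes listed by symbol as cytosolic ribosomal protein genes, 49 had end peaks, or 56.3%, against 33.3% of all genes with a 3′ UTR. The list includes paralogs such as RPL7L1, RPL22L1, RPL39L and RPS27L. The 60 end peaks of the listed genes had a median height of 1041.5 tags, and 46 had AAUAAA, 7 AUUAAA, 2 another variant and 5 no hexamer. In ribosomal genes with several annotated ends, 22 of 58 lay at the last end, against 57.1% over all. That end is the farthest of any annotated transcript. For the end peaks of RPL37A (2144 tags) and RPL27A (2605) it lay 77713 and 28911 nt downstream, with no exon reaching it. Whether such distant ends lower the share was not tested. RPL38, with a peak of 2480 tags 1 nt from its annotated end, was left out for an A-rich stretch. Ribosomal protein genes, GAPDH, HNRNPA1 and TUBA1B have near-identical copies elsewhere in the genome, and how tags that match several places were treated is not given in the sources used here, so their heights are uncertain.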

How the data were processed

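PABPC4 PAPERCLIP and HNRNPC CLIP peak lists of MDA-MB-231 cells were analysed, each made by the authors from 2 pooled samples. For PABPC4, RNase-treated lysates were immunoprecipitated and libraries were made with the tailing step of the kit omitted, per the study's methods. The deposited peak heights are counts of tags at the summit, not scaled to depth. The labels name UMI-tools, cutadapt, BWA 0.7.17 and hg38, and the study's methods describe peak finding with the CLIP Tool Kit for HNRNPC only, so settings for the PABPC4 tags are not given in the sources used here. The authors' p-values served only as a filter in an alternative. Library depth was not analysed here, and a sum of peak heights is not a depth.

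Positions listed under several gene IDs were counted a single time. 3′ UTRs came from protein-coding transcripts of GENCODE 44. Ends came from all transcripts of the gene, including non-coding ones and those marked as incomplete at the end. Python 3.11.15, NumPy 2.4.6 and SciPy 1.17.1 were used. Shares have 95% Wilson intervals and differences Newcombe intervals; 4 two-sided Fisher's exact tests were adjusted together by the Benjamini-Hochberg method. The scripts were tested on simulated data. Named genes are those of the 10 tallest end peaks, the 3 tallest per signal class, the 5 highest and 5 lowest shares at the last end, and fixed lists. H3C10, RPL37A, RPL38, KRT8, KRT19 and the genes shown as sequences were picked after their values were seen. The end peaks, lists and tests were chosen with earlier results of these data known. Alternatives varied the distance, annotation, A-rich limit, p-value, height, repeated entries, peaks per gene, signal window and merging of ends. Values of some genes of the list known for tandem 3′ ends are not reported here.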

Additional observations from a re-analysis of the deposited data

How the results depend on the processing

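Of 86 recalculations, 68 left the result on the same side of its threshold, within its interval, within the quartiles of peak height or, for the number of end peaks, within 1.5 times, and none turned a difference between groups of peaks the other way. The number of end peaks was 4635 among peaks at or above the list's median height, where their median height was 105 tags. The percent with a main signal was 84.2% within 10 nt of an annotated end, 78.0% within 50 nt, 82.2% with ends of coding transcripts only, 76.1% with no limit on A-rich stretches, 83.0% among the taller peaks, 83.6% with 1 peak per gene, 76.0% and 82.4% with windows of 30 and 60 nt, and 79.8% with the window set at the peak end. The percent at the last end was 59.4% within 10 nt, 55.0% within 50 nt, 55.4% with coding transcripts, 52.5% with no A-rich limit, 60.4% with 1 peak per gene, and 55.8% and 58.7% with ends merged within 25 and 100 nt. The percent of genes with the taller peak at the last end lay between 46.1% and 51.1%. The last minus upstream difference in main signals lay between 8.67 points (within 10 nt) and 21.3 points (no A-rich limit). The difference in HNRNPC peaks between last and upstream ends reached -0.584 points (Fisher's exact test, adjusted p = 0.0361) within 50 nt of an annotated end, an alternative added after seeing the data, and had adjusted p-values from 0.163 to 0.718 in the other 9. The cause was not tested.

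No paired analysis was possible because each list merges both samples of its protein, which also prevented any run without replicate 1 or 2. With 94 end peaks near an HNRNPC peak, small differences there are below what these counts can show.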
